A study of Homo sapiens with 4 samples.

Results

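The 10 genes described here belong to the YAP/TAZ and TEAD pathway. They were chosen by name from the deposited gene table, which holds 16834 genes. They are the coactivator genes YAP1 and WWTR1 (the gene of TAZ), the transcription factor gene TEAD1, the target genes CCN1, CCN2 and ANKRD1, and AMOTL1, AMOTL2, LATS2 and AJUBA, whose products act on YAP and TAZ. All 10 had a row in the table, and all 10 had at least 1 read in every library. The table's row named TAZ is tafazzin, a mitochondrial enzyme, and was not used. RNA of cells labelled MIA PaCa-2, an established line from a human pancreatic ductal adenocarcinoma, was sequenced after 12 h. The control library received neither drug, 1 library was from cells given 1 µM NBT, 1 from cells given 5 µM trametinib, and 1 from cells given both at these doses. NBT is neobractatin, a natural compound from a Garcinia plant, and trametinib inhibits the kinases MEK1 and MEK2. The genotype of all 4 was given as wild type, and each condition had 1 library, so no difference below has a replicate check.

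YAP and TAZ are coactivators that carry no DNA-binding domain of their own. When the Hippo kinases (MST and LATS) are active, YAP and TAZ are phosphorylated and held in the cytoplasm or degraded. Otherwise they enter the nucleus, bind TEAD factors at DNA sites with the core GGAATG and switch on target genes. Several of those targets, among them AMOTL2, LATS2 and AJUBA, encode proteins that in turn restrain or tune the pathway. In pancreatic ductal adenocarcinoma, YAP and TAZ are known for supporting growth. Phosphorylation and location of the proteins were not measured here, only RNA.

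The 250 bases before each annotated start were searched for the TEAD core GGAATG on both strands (CATTCC on the other strand). RefSeq's promoter table for GRCh38.p14 matched 8 of the 10 genes, with 11 windows, and CCN1 and TEAD1 had no entry. A match was found in 5 windows of 5 genes. The CCN2 window held 3 matches and the ANKRD1 window 2, while YAP1 and 1 of the windows of AMOTL2 and of AJUBA held 1 each. Of all 35116 windows of this length in the table, 11.89% held at least 1 match, 0.94% at least 2, and 29 windows (0.0826%) at least 3. The AP-1 motif TGANTCA, which overlapped no TEAD match, was found in the ANKRD1 window alone among the 11 and in 6.57% of all windows. The windows of CCN2 and ANKRD1 are shown because they held the most matches and because these genes had the largest differences below. One window of AJUBA, which stood highest with trametinib, is shown with its single match. A window of WWTR1, which was called lower with trametinib, is shown as one with no match. Capitals mark the TEAD core. All 4 lie on the minus strand and are written 5′ to 3′ in the direction of the gene, CCN2 at chr6:131951373-131951622, ANKRD1 at chr10:90921088-90921337, AJUBA at chr14:22976843-22977092 and WWTR1 at chr3:149658026-149658275.
CCN2: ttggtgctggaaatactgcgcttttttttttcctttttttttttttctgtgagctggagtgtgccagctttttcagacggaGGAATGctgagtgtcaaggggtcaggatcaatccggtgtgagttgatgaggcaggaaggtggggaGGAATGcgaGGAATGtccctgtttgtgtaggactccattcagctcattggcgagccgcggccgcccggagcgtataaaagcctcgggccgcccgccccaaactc
ANKRD1: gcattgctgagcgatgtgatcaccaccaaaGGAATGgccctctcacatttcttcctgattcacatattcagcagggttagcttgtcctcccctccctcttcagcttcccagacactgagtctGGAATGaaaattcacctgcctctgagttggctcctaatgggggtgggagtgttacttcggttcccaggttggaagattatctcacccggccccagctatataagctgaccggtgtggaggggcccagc
AJUBA: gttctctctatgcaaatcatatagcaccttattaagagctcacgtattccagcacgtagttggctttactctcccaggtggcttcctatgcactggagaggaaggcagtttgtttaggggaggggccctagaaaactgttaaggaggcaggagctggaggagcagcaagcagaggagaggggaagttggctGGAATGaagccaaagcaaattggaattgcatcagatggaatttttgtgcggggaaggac
WWTR1: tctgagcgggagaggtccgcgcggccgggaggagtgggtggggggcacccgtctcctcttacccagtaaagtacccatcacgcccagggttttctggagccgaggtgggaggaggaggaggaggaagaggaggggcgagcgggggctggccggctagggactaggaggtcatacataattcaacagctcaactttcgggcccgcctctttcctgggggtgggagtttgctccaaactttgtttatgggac
In CCN2 the matches lay 169 to 164, 104 to 99 and 95 to 90 bases before the start. In ANKRD1 they lay 220 to 215 and 128 to 123 bases before it, with the AP-1 match at 195 to 189. The AJUBA match lay 59 to 54 bases before that window's start, which is an internal start of the gene. The WWTR1 window shown and the AMOTL2 window with a match also lay inside the spans of their genes. A match is a run of letters and not a measured binding site, and no match says only that these letters are not in the window.

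**Figure D1:**
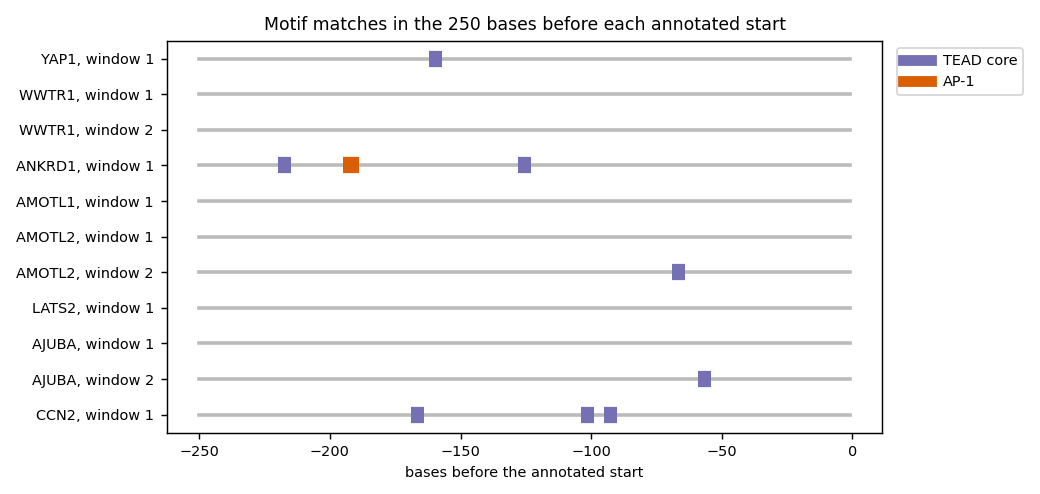
Each line is 1 of the 11 windows of 250 bases before an annotated start, with position in bases before the start on the x axis and filled boxes for matches to the TEAD core and to AP-1. CCN2 shows 3 TEAD boxes and ANKRD1 shows 2 with an AP-1 box between them, while 6 windows show none.

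The 4 libraries held 18776212 to 19614763 estimated reads on genes. A floor of 3 reads corresponded to 0.153 to 0.160 CPM (reads scaled to a fixed library size), so a level below this could not be told from 0. As a check of the trametinib labels, 10 output genes of the MAPK pathway were read. In both libraries with trametinib, 9 of them (DUSP4, DUSP6, SPRY2, SPRY4, ETV4, ETV5, PHLDA1, CCND1 and EPHA2) were called lower than in the control by the limits given below. The other, EPHA4, had at most 1 read in any library, too few to be called. The cell line labels went against each other and against the data. The cell line entries of the labels run from MIA PaCa-2 to MIA PaCa-5 over the 4 libraries, while the titles give MIA PaCa-2 for all. MIA PaCa-2 is known for a homozygous deletion of CDKN2A, yet CDKN2A stood at 249 to 342 TPM (a level scaled to transcript length and to a fixed library sum) in these libraries. KRT5, a basal keratin, stood at 634 to 3123 TPM and TP63, a squamous factor, at 32.7 to 63.0 TPM. VIM, the mesenchymal filament that MIA PaCa-2 is known to express strongly, stood at only 11.5 to 26.4 TPM, while the epithelial CDH1 stood at 51.2 to 86.9 TPM. CDKN2A, KRT5 and TP63 were picked for this check after their values were seen. The 7 epithelial and ductal markers analysed (KRT7, KRT8, KRT18, EPCAM, CDH1, SOX9 and MUC1, none at 0) summed to 7308 TPM in control, 6138 under NBT, 3574 under trametinib and 2774 under the combination. KRT8 and KRT18 made up most of this sum, and the members did not move together. KRT18 and SOX9 were called lower in both libraries with trametinib, KRT7 and KRT8 with the combination, and MUC1 was called higher in both (1.84 TPM in control, 6.29 under trametinib and 3.78 under both drugs). EPCAM and CDH1 were not called in any library against control. Of 3 fibroblast markers, the sum was at most 1.88 TPM, with 1 or 2 of them at 0 in each library. COL1A1, with 45 reads in control and 98 under trametinib, was called higher in the latter. The 4 mesenchymal markers summed to 23.1 to 37.6 TPM, with CDH2 at 0 under NBT. VIM was called higher in both libraries with trametinib, with 202 reads in control, 249 under NBT, 425 under trametinib and 500 under both drugs. The 6 leukocyte and endothelial markers summed to 97.5 to 140.5 TPM, nearly all of it CD68, with 0 to 2 of them at 0 in each library. In that list CD3E had 0 reads in control and under NBT, 55 under trametinib and 29 under both drugs. It was called higher in both libraries with trametinib. WWTR1 and CCN2 below also split by trametinib, but in the opposite direction. VWF, with 3 reads in control and 25 under trametinib, was called higher in the latter, and the pan-leukocyte gene PTPRC had 8 to 17 reads. The part of these shifts in the differences below was not tested. In bulk RNA, fewer cells of a type and less RNA per cell cannot be told apart.

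A difference between 2 libraries was taken as beyond counting error when an exact binomial test of the counts passed a false discovery rate (FDR) of 0.05 over all genes, and as called when the log2 fold change was also at least 1 in size. The test compares libraries and not conditions. Against the control, 0 of the 10 genes were called under NBT, 2 under trametinib (WWTR1 and CCN2, both lower) and 3 under the combination (ANKRD1 higher, CCN1 and CCN2 lower). The share of all tested genes called was 2.61% of 15888 under NBT, 5.96% of 16197 under trametinib and 8.42% of 16229 under the combination. Without the fold limit, 6 of the 10 differed beyond counting error under NBT (all lower), 8 under trametinib (LATS2 and AJUBA higher, 6 lower) and 10 under the combination (ANKRD1 higher, 9 lower). The background without the fold limit was 35.5%, 42.7% and 49.6% of all tested genes. It depends on depth. Among genes with at least 500 reads in the higher library, 58.7%, 66.5% and 75.6% differed beyond counting error, against 6, 7 and 8 of the 8 pathway genes at that depth. Across the 10 genes the median difference on the log2 scale came to -0.30 under NBT, -0.33 under trametinib and -0.34 under the combination, where the median of all tested genes was -0.01, 0.08 and 0.05.

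When the combination was set against trametinib alone, 2 of the 10 genes were called (ANKRD1 higher and AJUBA lower), with 6.11% of 16343 genes called. Beyond counting error there were 8 of the 10, against a background of 45.5%. When it was set against NBT alone, 2 were called (ANKRD1 higher and CCN2 lower), with 4.36% of 16250 genes called, and 9 differed beyond counting error against 37.4%. Among genes with at least 500 reads in the higher library, the share beyond counting error was 71.9% against trametinib and 59.6% against NBT, with 7 of 8 pathway genes in each. Counting error is not the spread between cultures. Where a coefficient of variation (CV) of 0.2 between cultures was assumed, WWTR1 and CCN2 with trametinib, ANKRD1 and CCN2 with the combination, ANKRD1 in the combination against trametinib and CCN2 in the combination against NBT were still called. CCN1 with the combination, AJUBA in the combination against trametinib and ANKRD1 in the combination against NBT were not. At a CV of 0.4, 0 of the 10 were called in any of the 5 comparisons. For these 10 genes, 0 of the differences of less than 2-fold passed at a CV of 0.2, with or without the fold limit.

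**Figure D2:**
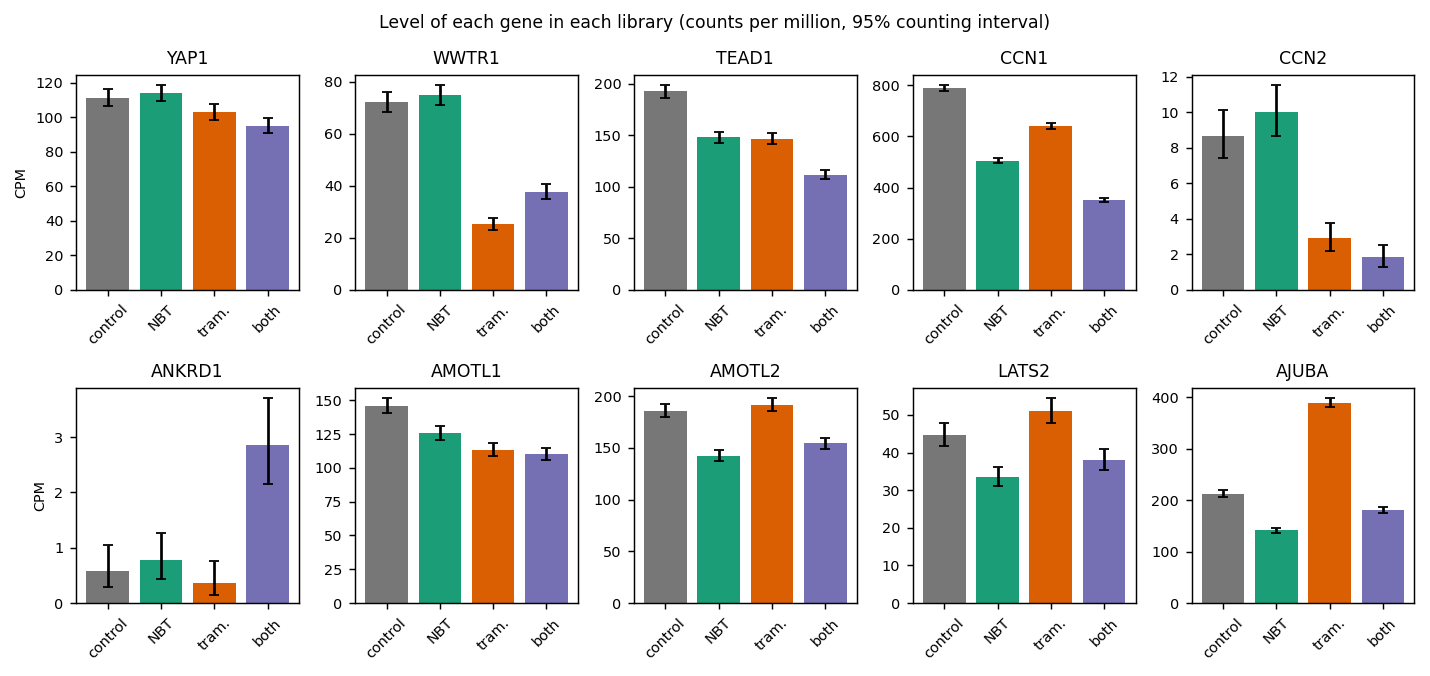
Level of each gene in CPM (y axis, starting at 0 and scaled per gene) in the control, NBT, trametinib (tram.) and combination (both) libraries, 1 library per bar, with exact 95% Poisson intervals that cover counting error only. WWTR1 and CCN2 are low in both libraries with trametinib, ANKRD1 is high in the combination library and AJUBA in the trametinib library.

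YAP1 (NCBI Gene 10413, chr11:102110447-102233424, plus strand) encodes YAP. It stood at 112 CPM in control, 114 under NBT, 103 under trametinib and 95.1 under the combination. The 4 values lay close together. The log2 fold change against control was 0.03 under NBT (95% interval -0.05 to 0.12), -0.11 under trametinib (-0.20 to -0.02) and -0.23 under the combination (-0.32 to -0.14), the last being a 1.17-fold lower level.

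WWTR1 (NCBI Gene 25937, chr3:149517235-149724788, minus strand) encodes TAZ, the paralog of YAP. It stood at 72.1 CPM in control, 74.8 under NBT, 25.1 under trametinib and 37.6 under the combination. Both libraries with trametinib were low and both without it were high. WWTR1 was 2.87-fold lower with trametinib than in control, a log2 fold change of -1.52 (-1.68 to -1.37). With the combination the log2 fold change was -0.94 (-1.07 to -0.81), short of the limit of 1. The combination stood above trametinib alone by 0.58 on the log2 scale (0.41 to 0.75). Against NBT alone it stood at -0.99 (-1.12 to -0.86), which also fell just short, and which was called when the libraries were scaled by TMM factors (-1.02) or by the median of ratios (-1.01). On the TPM scale, the WWTR1 level was 0.685 of that of YAP1 in control, 0.676 under NBT, 0.252 under trametinib and 0.410 under the combination. The summed TPM of both coactivators was 69.4, 69.2, 47.9 and 49.2 in the same order, so that a steady YAP1 stood beside a lower WWTR1 where trametinib was given.

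Estimated reads were also given per RefSeq transcript. Of the 13 YAP1 transcripts, 4 held at least 10% of the gene's reads in 1 library or more. NM_001130145.3 held 42.2% in control, 31.3% under NBT, 44.0% under trametinib and 52.4% under the combination. NM_001282101.1 held 20.9% and 19.8% in the libraries without trametinib and 3.38% and 1.40% in the libraries with trametinib and with both. NM_001282100.1 held 0% and 7.67% without trametinib and 19.4% and 17.8% in the same 2 libraries with it. The opposite shares of NM_001282101.1 and NM_001282100.1 stand beside a nearly level YAP1 total. The other named transcript, XM_005271383.3, did not split by trametinib. It held 15.6% in control, 10.8% under NBT, 10.8% under trametinib and 4.24% under the combination. Of 5 WWTR1 transcripts, NM_015472.6 held most reads throughout, from 77.3% with the combination to 91.7% with trametinib. Transcripts of 1 gene share most of their sequence, the split of shared reads is an estimate, and the error of these shares is not known.

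TEAD1 (NCBI Gene 7003, chr11:12674421-12944737, plus strand) encodes a DNA-binding partner of YAP and TAZ. It stood at 193 CPM in control, 148 under NBT, 147 under trametinib and 112 under the combination. Each drug alone gave nearly the same lower value, and the combination gave the lowest. The log2 fold changes were -0.38 under NBT (-0.45 to -0.31), -0.39 under trametinib (-0.46 to -0.32) and -0.79 under the combination (-0.86 to -0.71), the last being 1.72-fold lower. The sum of the values for the single drugs was -0.77, and the combination departed from it by -0.01 ± 0.05 (counting SE). The 3 paralogs did not share this order. On the TPM scale, TEAD4 had the highest level of the family in every library (56.0 to 63.0 TPM), and TEAD2 and TEAD3 had their highest levels with trametinib (27.8 and 31.8 TPM). TEAD1 made up 27.9% of the summed TPM of TEAD1 to TEAD4 in control, 24.3% under NBT, 20.4% under trametinib and 17.7% under the combination.

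CCN1 (NCBI Gene 3491, chr1:85580761-85583950, plus strand; formerly CYR61) encodes a secreted matricellular protein and is a widely used readout of YAP and TAZ. It stood at 789.6 CPM in control, 506 under NBT, 642 under trametinib and 352 under the combination. The control was the highest and the combination the lowest, with both single drugs between them. The log2 fold changes were -0.64 under NBT (-0.68 to -0.61), -0.30 under trametinib (-0.33 to -0.26) and -1.17 under the combination (-1.21 to -1.12). The combination level was 2.24-fold below control, and the CCN1 call is the one of the 3 in that comparison that was lost at an assumed CV of 0.2. By TPM, CCN1 ranked 174th of 16834 genes in control and 454th with the combination, the most abundant of the 10 in all 4 libraries.

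CCN2 (NCBI Gene 1490, chr6:131948176-131951372, minus strand; formerly CTGF) encodes a related secreted protein with the same standing as a target. It had 163 reads in control, 195 under NBT, 55 under trametinib and 36 under the combination, or 8.68, 10.03, 2.90 and 1.84 CPM. The libraries split by trametinib, and NBT alone lay within counting error of control. The log2 fold changes were 0.21 under NBT (-0.10 to 0.52), -1.57 under trametinib (-2.05 to -1.13, a 2.97-fold lower level) and -2.23 under the combination (-2.81 to -1.71, 4.68-fold lower). The combination stood at -0.65 against trametinib alone (-1.31 to -0.03), which did not pass the FDR limit, and at -2.43 against NBT alone (-3.01 to -1.93), which was called. CCN1 and CCN2 thus differed in order, with the lower CCN1 of the single drugs under NBT and the lower CCN2 under trametinib. Per length, CCN1 stood 93.4 times above CCN2 in control, 51.8 times under NBT, 227 times under trametinib and 197 times under the combination, as ratios of TPM. Antisense genes of GENCODE v29 overlap exons of CCN2 (AL133346.1), YAP1, WWTR1 and AMOTL1, and whether the counting used strand is not given in the sources used here.

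ANKRD1 (NCBI Gene 27063, chr10:90912096-90921087, minus strand) encodes an ankyrin repeat protein and is also used as a readout of YAP and TAZ. It had 11 reads in control, 15 under NBT, 7 under trametinib and 56 under the combination, or 0.586, 0.772, 0.369 and 2.85 CPM. The combination library stood apart, and among the other 3 each neighbour in the order of levels lay within counting error of the next. The combination was 4.70-fold above control, a log2 fold change of 2.23 (1.34 to 3.37), and its log2 fold change was 2.86 against trametinib alone (1.81 to 4.33) and 1.85 against NBT alone (1.05 to 2.82), a call that was lost at an assumed CV of 0.2. Against control, the values with NBT (0.38, from -0.82 to 1.66) and with trametinib (-0.63, from -2.27 to 0.83) had wide intervals that span 0, so a change was not detectable at this depth. All these values rest on few reads. With 5 reads added in place of 0.5, the combination against control came to 1.87. The direction was opposite to that of CCN1 and CCN2 in the same library, which were called lower.

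**Figure D3:**
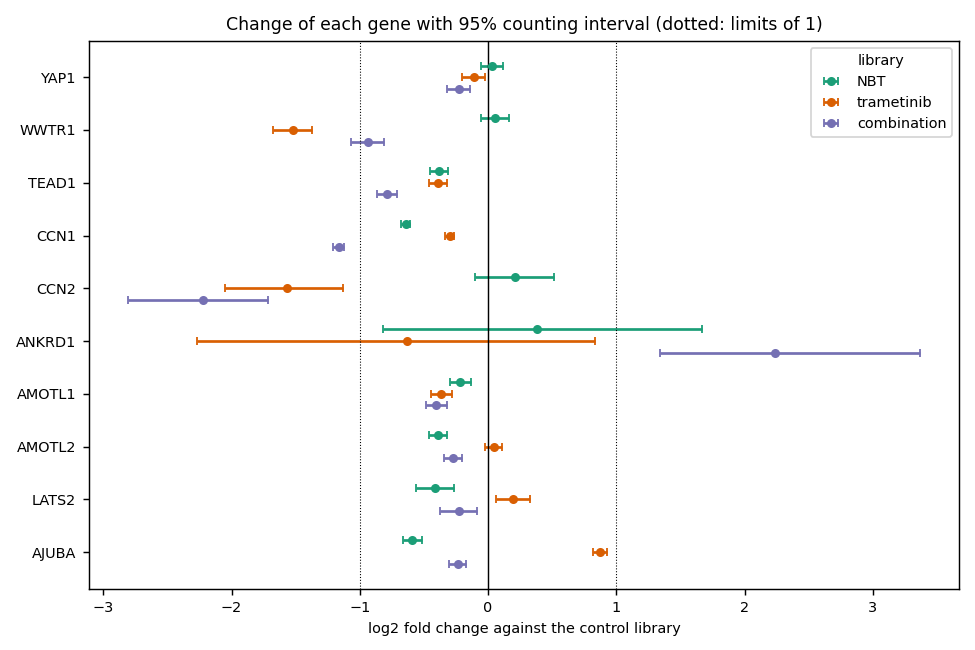
Log2 fold change of each gene against the control library (x axis) with NBT, trametinib and the combination, 1 point per comparison, with 95% intervals that cover counting error only and dotted lines at the limits of 1. WWTR1 with trametinib, CCN2 in both libraries with trametinib, CCN1 with the combination and ANKRD1 with the combination lie beyond a limit.

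For CCN1, CCN2 and ANKRD1, the 3 genes with the most similar differences were looked up among the 10662 genes with at least 100 reads in 1 library. Likeness was the Euclidean distance between the 3 log2 fold changes against control. Nearest to CCN1 were CDT1 (distance 0.090), ZBTB12 (0.092) and GAS6 (0.120). Nearest to CCN2 were PLAU (0.227), ITGA2 (0.386) and KCNN4 (0.463), of which PLAU encodes the urokinase protease and ITGA2 an integrin subunit. PLAU stood at 4196 reads in control, 4393 under NBT, 1398 under trametinib and 862 under the combination. Nearest to ANKRD1 were DUSP1 (0.703), GFPT1 (0.961) and CLDN4 (0.968), at larger distances, each with its highest count under the combination. With 3 values per gene that share 1 control library, such likeness is a description only.

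AMOTL1 and AMOTL2 encode angiomotin-like proteins that can bind YAP and TAZ and hold them out of the nucleus, and AMOTL2 is also a common target gene. AMOTL1 (NCBI Gene 154810, chr11:94706460-94876748, plus strand) stood at 146 CPM in control, 126 under NBT, 113 under trametinib and 110.3 under the combination. The control was highest, and trametinib and the combination lay within counting error of each other (log2 difference -0.04, from -0.13 to 0.05). Against control the log2 fold changes were -0.22 (-0.30 to -0.14), -0.37 (-0.45 to -0.28) and -0.41 (-0.49 to -0.32) with NBT, trametinib and the combination. AMOTL2 (NCBI Gene 51421, chr3:134355345-134375417, minus strand) stood at 186 CPM in control, 142 under NBT, 192 under trametinib and 154 under the combination. Its levels split by NBT and not by trametinib, since both libraries with NBT were the lower. The log2 fold changes were -0.39 under NBT (-0.46 to -0.32), 0.04 under trametinib (-0.02 to 0.11, a sign that turned under TMM or median-of-ratios scaling) and -0.27 under the combination (-0.34 to -0.20). The AMOTL2 to AMOTL1 ratio of TPM was 2.46 in control, 2.31 under NBT, 3.51 under trametinib and 2.69 under the combination. Of 6 AMOTL2 transcripts, XM_006713654.3 held 25.3% of the reads in control, 33.7% under NBT, 29.5% under trametinib and 42.3% under both drugs. The exons of AMOTL2 overlap a ribosomal protein pseudogene (RPL39P5) on its own strand.

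LATS2 (NCBI Gene 26524, chr13:20973036-21061586, minus strand) encodes a kinase that phosphorylates YAP and TAZ and is itself a target gene. It stood at 44.7 CPM in control, 33.5 under NBT, 51.1 under trametinib and 38.1 under the combination. As with AMOTL2, both libraries with NBT were below both without it. The log2 fold changes against control were -0.41 (-0.56 to -0.26), 0.19 (0.06 to 0.33) and -0.23 (-0.37 to -0.09), all beyond counting error and none called. Among LATS2 transcripts, the share of XM_011535042.2 was 14.8% in control, 0% under NBT, 42.1% under trametinib and 27.7% under the combination, an estimate with no known error.

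AJUBA (NCBI Gene 84962, chr14:22971177-22982551, minus strand) encodes a LIM-domain protein that restrains LATS kinases. It stood at 213 CPM in control, 141 under NBT, 389.8 under trametinib and 181 under the combination. The trametinib library was far above the other 3, and the 2 libraries with NBT were the lowest. The log2 fold change with trametinib was 0.87 (0.82 to 0.93), a 1.83-fold higher level that fell short of the limit of 1. It was -0.59 with NBT (-0.66 to -0.52) and -0.24 with the combination (-0.30 to -0.17). The combination was 2.16-fold below trametinib alone, a log2 difference of -1.11 (-1.17 to -1.05). Among all genes by TPM, AJUBA ranked 1575th in control, 2210th under NBT, 780th under trametinib and 1766th under the combination. KRT5, the basal keratin given above, had the same order of levels, with 3123 TPM under trametinib against 634 to 1180 in the other libraries, and its part in this difference was not tested. The main AJUBA transcript, NM_032876.6, held 88.6% of the gene's reads in control and 75.3% to 81.6% in the treated libraries. A protein-coding gene model (AL132780.3) overlaps AJUBA exons on the same strand, and WWTR1 and AJUBA were the 2 of the 10 genes with estimated counts that were not whole.

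The combination was compared with the sum of the single-drug log2 fold changes, as a description with no test. AMOTL2, TEAD1 and LATS2 lay closest to the sum, departing by 0.08 ± 0.05, -0.01 ± 0.05 and -0.01 ± 0.10 (counting SE). CCN1 (-0.22 ± 0.03), AJUBA (-0.52 ± 0.05) and CCN2 (-0.86 ± 0.34) were lower in the combination than the sum, as was YAP1 by less (-0.15 ± 0.06). WWTR1 (0.53 ± 0.10), AMOTL1 (0.18 ± 0.06) and ANKRD1 (2.48 ± 0.79) were higher than the sum. AJUBA was the one whose sum (0.28) and combination (-0.24) had opposite signs apart from ANKRD1, whose sum (-0.25) rests on at most 15 reads per library.

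**Figure D4:**
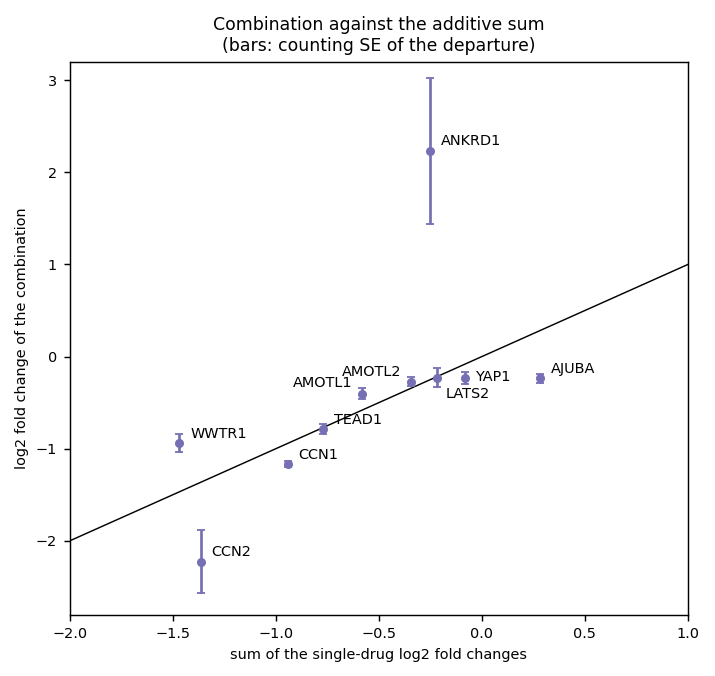
Log2 fold change of the combination against control (y axis) over the sum of both single-drug log2 fold changes (x axis), 1 point per gene, with bars of 1 counting SE of the departure and a line where both are equal. TEAD1, LATS2 and AMOTL2 lie near the line, ANKRD1 far above it, and CCN2 and AJUBA below it.

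Other genes of the pathway were read from the same fit in 3 lists. Of 21 genes of the Hippo cascade and its upstream regulators, 0 were called under NBT, 1 under trametinib (AMOT, higher, on at most 9 reads) and 2 under the combination (both lower). The 2 were WWC1, which encodes KIBRA, an activator of LATS kinases, and FAT1, a giant cadherin. WWC1 stood at 280.5 CPM in control, 162 under NBT, 282 under trametinib and 137 under the combination, again low in both libraries with NBT. FAT1 stood at 125, 79.6, 86.6 and 60.1 CPM. Their log2 fold changes with the combination were -1.03 (-1.10 to -0.97) and -1.06 (-1.16 to -0.96). These counts stand beside 2.61%, 5.96% and 8.42% of all tested genes, so the share of the list called was near the background. The median of the list was -0.10 under NBT, 0.01 under trametinib and -0.20 under the combination. Of 6 other TEAD factors and cofactors (TEAD2 to TEAD4, VGLL1, VGLL3 and VGLL4), 0 were called in the 3 comparisons with control. Without the fold limit, 1 differed under NBT (lower), 3 under trametinib and 1 under the combination (all higher).

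Of 16 further target genes of YAP and TAZ analysed, 1 was called under NBT (lower), 4 under trametinib (2 higher, 2 lower) and 7 under the combination (2 higher, 5 lower). The shares of all tested genes called were again 2.61%, 5.96% and 8.42%. The list median was -0.44 under NBT, -0.04 under trametinib and -0.48 under the combination. F3, which encodes tissue factor, was the one with the most reads in control. F3 stood at 1038 CPM in control, 582 under NBT, 375 under trametinib and 143 under the combination with log2 fold changes of -0.84, -1.47 and -2.86. CRIM1 was called lower with trametinib (-1.11) and with the combination (-1.05), while FJX1 (-1.39), DOCK5 (-1.03) and NUAK2 (-1.41), the last encoding a kinase, were called lower with the combination alone. TGFB2, a TGF-β ligand, was the one called with NBT, at a log2 fold change of -1.29 (-1.43 to -1.16), and it stood at 85.8 CPM in control, 35.0 under NBT, 102 under trametinib and 47.2 under the combination. GADD45A, a stress-induced growth arrest gene, went the other way, with 20.3 CPM in control, 40.6 under NBT, 37.0 under trametinib and 99.5 under the combination. Its log2 fold change was 2.29 (2.13 to 2.45) with the combination and 1.00 with NBT, just short of the limit before rounding. IGFBP3, which binds insulin-like growth factors, had 17 reads in control, 11 under NBT, 196 under trametinib and 55 under both drugs, and was called higher under trametinib (log2 fold change 3.48, from 2.80 to 4.32) and under the combination (1.60, from 0.82 to 2.51). The other gene called higher with trametinib, NT5E, had at most 20 reads. These target genes did not share 1 direction, and neither did CCN1, CCN2 and ANKRD1 with the combination.

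**Figure D5:**
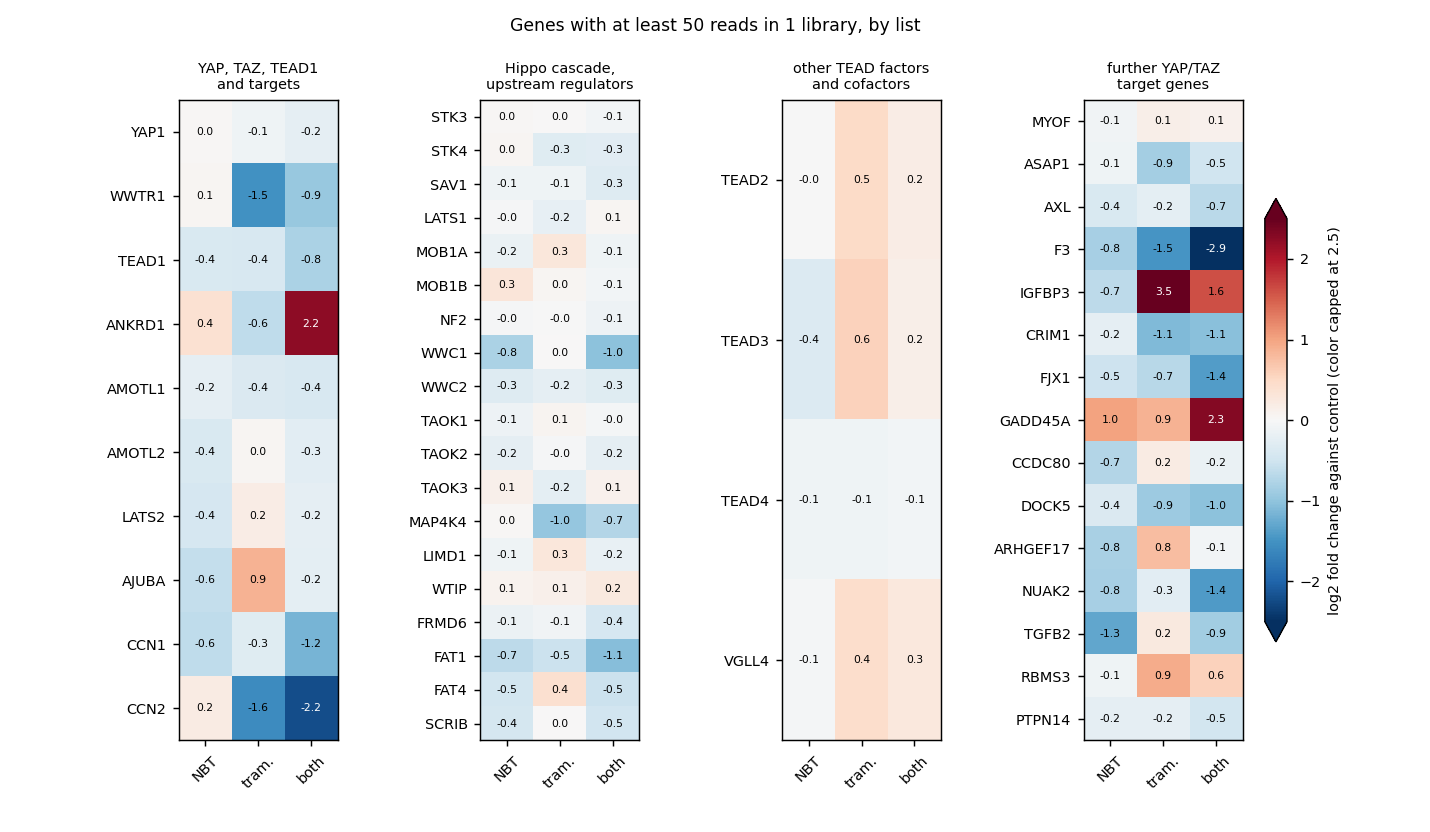
Log2 fold change against control with NBT, trametinib (tram.) and the combination (both) for the pathway genes with at least 50 reads in 1 library, in 4 lists, with red for higher and blue for lower and the value printed in each cell. F3 and CCN2 are lowest and ANKRD1 and GADD45A highest in the combination column, while IGFBP3 is highest in the trametinib column.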

How the data were processed

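Cells labelled MIA PaCa-2 were sequenced on a BGISEQ-500, 1 library per condition, assigned by title and treatment label. Per the labels, the submitters' processing notes name Bowtie2 2.2.5, RSEM 1.2.8 and build hg38, without a role for each. The authors deposited estimated counts, TPM values and FPKM values per gene and transcript. FPKM was not used. Estimated counts were rounded and scaled to library sums (18776212 in control, 19437747 under NBT, 18949915 under trametinib and 19614763 under the combination). Log2 fold changes had 0.5 reads added. Calls came from exact two-sided binomial tests over genes with at least 1 read in either library, with Benjamini-Hochberg FDR of at most 0.05 and a log2 fold change of at least 1 in size, after the Poisson model and limits of the study's methods. Exact 95% Clopper-Pearson intervals cover counting error only.

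Alternatives used TMM factors and exact negative binomial tests (edgeR 4.0.16), DESeq2 1.42.0 size factors, TPM, transcript sums, other filters and other limits. The calling was tested on simulated libraries with counting error only. The 200 changed genes had at least 50 reads in control, so the test covers neither spread between cultures nor lower counts. All 10 genes were named. Genes of other lists were named when called against control with at least 50 reads in the higher library. NT5E, AMOT, EPHA4, TEAD2 to TEAD4, the VGLL genes and the single marker genes were named outside this rule with their values known. The genes and lists were chosen with earlier results of these data known. The lists' VGLL2, FOXF2, KRT19, COL3A1 and DCN were not among the deposited genes under these symbols, and so were not analysed here. Gene positions came from RefSeq, strands and exon overlaps from GENCODE v29 (GRCh38), and promoters from RefSeq (GRCh38.p14).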

Additional observations from a re-analysis of the deposited data

How the results depend on the processing

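With 1 library per condition, the spread between cultures is unknown, and depth limits ANKRD1 (7 to 56 reads) and CCN2 (36 to 195 reads) most. Of 250 alternative values of the log2 fold changes of the 10 genes over 5 comparisons, 243 kept their direction and their side of the limits. Values from transcript counts summed per gene were all but identical to the main ones, and so are no separate check. The 5 that turned were all near 0, namely WWTR1 with NBT against control on TPM values (-0.016), AMOTL2 with trametinib against control under TMM (-0.031) and median-of-ratios scaling (-0.022), and AMOTL1 in the combination against trametinib under TMM (0.0089) and on TPM values (0.050). The cause was not tested. Of the remaining 2, both were WWTR1 in the combination against NBT, which passed the fold limit under TMM and median-of-ratios scaling.

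The number of genes called is given for NBT, trametinib and the combination against control, then the combination against trametinib and against NBT. It was 116, 352, 401, 252 and 251 at a log2 limit of 2, and 5635, 6915, 8056, 7428 and 6079 with no fold limit. It was 69, 365, 547, 302 and 204 at an assumed CV of 0.2, and 4, 22, 51, 14 and 13 at a CV of 0.4. In the same order, 6, 8, 10, 8 and 9 of the 10 genes passed with no fold limit. At a log2 limit of 2, 0 passed with NBT or with trametinib against control, and 2 passed with the combination against control (ANKRD1 and CCN2). In the combination, 1 passed against trametinib (ANKRD1) and 1 against NBT (CCN2). At a CV of 0.2 the same 1 and 1 passed in the last 2 comparisons, and at a CV of 0.4, 0 passed in the 4 comparisons with trametinib. These settings differ from the main ones by their limits or assumed spread. With no fold limit and a CV of 0.2, a choice made after seeing the data, 0, 2, 2, 1 and 1 of the 10 genes passed, and at a CV of 0.4, 0 passed in each. No paired analysis was possible because each condition had 1 library.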
